A study of Mus musculus with 14 samples.

Results

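Retinas with endothelial loss of *Tgfbr1* were compared with a control retina within a single batch of snRNAseq libraries, to ask which differences in expression are shared by the retinal cell types and which belong to 1 type. The 4 libraries, 1 control and 3 CKO, carry the batch label 1 and were made from whole-retina nuclei with the PIPseq v4.0 PLUS kit, a droplet method in which reads are collapsed to unique molecular identifiers (UMIs), 1 per molecule. They hold 31187 nuclei, 40.2% of the retina nuclei of the series, and are 4 of its 12 retina libraries. CKO mice were *Cdh5CreER;Tgfbr1 CKO/-*, with a conditional allele over a null allele of *Tgfbr1* and with CreER under control of *Cdh5* (VEcadCreER in the labels), which is active in vascular endothelial cells (ECs). These mice received 4-hydroxytamoxifen (4HT) between P3 and P5. Their retinas were taken at P14 according to the results section of the study, whereas the labels call the mice young adults. The control is labeled wild type. For other retinas in the study, controls that are wild type in phenotype typically were *Cdh5CreER;Tgfbr1 CKO/+* or *Cdh5CreER;Tgfbr2 CKO/+*. Whether the mice of this control library had such a genotype or received 4HT, how many mice stand behind each library and what the batch label stands for are not given in the sources used here. The p-values of the gene tests therefore measure the spread between the CKO libraries, as 1 control library shows none of its own. The control was assumed to vary like the CKO libraries. With 1 control library a difference of genotype cannot be told apart from a difference of that library.

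The control library holds 11513 nuclei and 30989702 UMIs, and CKO replicates 1, 2 and 3 hold 11086, 4871 and 3717 nuclei and 31506779, 11967863 and 12864074 UMIs. Median UMIs per nucleus were 1595 in the control and 1601, 1367 and 2029 in the CKO replicates, so that the control was closest in depth to CKO replicate 1. Of all barcodes, 3 occur in more than 1 of the 4 libraries. Of 61 marker genes of the 11 cell type labels, 53 had their highest level in their own label. Among the others, *Cabp5* was highest in rod bipolar cells, *Pax6*, *Aqp4* and *Aldh1l1* in Müller glia and *Slc1a3* and *Sox9* in astrocytes, and *Sept4* had no UMIs under that symbol. CKO replicate 3 stood apart in sex-linked transcripts. *Xist* was at 6779 CPM (UMIs of a gene scaled to the same total of UMIs in each sum, as in counts per 1e+06) in the control, at 6714 and 6823 in CKO replicates 1 and 2 and at 12.9 in CKO replicate 3, where the Y chromosome gene *Uty* was at 252 CPM against 2.07, 1.52 and 0.836 in the others. Counts of called genes are therefore also given without CKO replicate 3, and sums of gene lists are given per library. None of the 11 labels is an EC or pericyte label, and the *Tgfbr1* level checks nothing about recombination in ECs. Over all nuclei *Tgfbr1*, the type I receptor gene, was at 89.0 CPM in the control and at 71.4, 74.8 and 78.5 CPM in the CKO replicates, and *Tgfbr2*, the type II receptor gene, was at 1.55 against 1.84, 1.75 and 3.58 CPM.

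TGF-beta signaling through TGFBR1 and TGFBR2 in ECs is needed for the normal growth of retinal vessels. In tissue that is short of oxygen, hypoxia-inducible factors raise genes of glycolysis, glucose uptake and angiogenic signaling. Müller glia span the retina and ensheath its neurons and vessels, and they answer many kinds of damage with gliosis, in which genes of intermediate filaments and of cytokine signaling rise.

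Rods took a smaller share of the nuclei in all 3 CKO libraries, and immune cells a larger one. Rods were 57.5% of control nuclei (95% exact binomial interval 56.6% to 58.4%) and 50.8%, 50.6% and 50.9% of the nuclei in CKO replicates 1, 2 and 3 (mean 50.8% ± 0.154, SD, n = 3). Among nuclei with at least 1000 UMIs, however, rods were 40.5% in the control and 36.8%, 27.8% and 42.6% in the CKO replicates, so that CKO replicate 3 was above the control and the 3 values were no longer close. Nuclei labeled immune were 29 of 11513 in the control (0.252%, interval 0.169% to 0.362%) and 0.857%, 0.801% and 0.807% in the CKO replicates (mean 0.822% ± 0.0308, SD, n = 3), or 3.26 times the control. CKO libraries lay above the control in 8 labels and below it in 1, and they overlapped it in 2. Cone bipolar cells (CBCs) were at 11.3% against 13.3%, 12.95% and 13.2%, glycinergic amacrine cells at 7.58% against 8.96%, 9.20% and 9.20% and GABAergic amacrine cells at 8.63% against 9.498%, 10.2% and 9.63%. Retinal ganglion cells (RGCs) were at 1.99% against 2.27%, 2.69% and 2.82%, horizontal cells at 0.608% against 0.704%, 1.11% and 1.16% and cones at 3.57% against 4.56%, 3.88% and 3.85%. All of these inner retinal labels and cones were thus higher in every CKO library when all nuclei are counted. Among nuclei with at least 1000 UMIs CKO replicate 3 was below the control for GABAergic amacrine cells (10.4% against 11.999%) and cones (4.53% against 4.81%). Astrocytes rested on few nuclei, with 12 in the control and 47, 12 and 6 in the CKO replicates (0.104% against 0.424%, 0.246% and 0.161%). The shares of Müller glia (3.49% against 3.27%, 3.55% and 3.26%) and of rod bipolar cells (4.97% against 5.35%, 4.76% and 5.08%) overlapped. An exact permutation test of 1 against 3 libraries cannot give a p under 0.25, and p was 0.25 (0.393 after Benjamini-Hochberg adjustment over the 11 labels) for rods, CBCs, both amacrine labels, RGCs, horizontal and immune cells.

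Shares add up to the whole, and a lower share of rods raises all others. Among nuclei other than rods, immune cells were at 2.81, astrocytes at 2.30, horizontal cells at 1.40 and RGCs at 1.13 times the control by the mean of the CKO libraries. CKO replicate 1 was not above the control there for horizontal cells (1.43% in both) and RGCs (4.62% against 4.68%). CBCs (1.00), glycinergic amacrine cells (1.04), cones (0.990) and GABAergic amacrine cells (0.979) were close to it, and rod bipolar cells (0.880) and Müller glia (0.830) were below it. The difference turned from higher to lower for cones, GABAergic amacrine and rod bipolar cells when rods were left out. In the 8 CKO libraries of the other batches, 1 of which holds only 104 nuclei, the share of rods had a median of 54.7% and ran from 0% to 61.2%, a range that includes the control of batch 1, so that the tight values of batch 1 do not extend to the other batches.

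**Figure D1:**
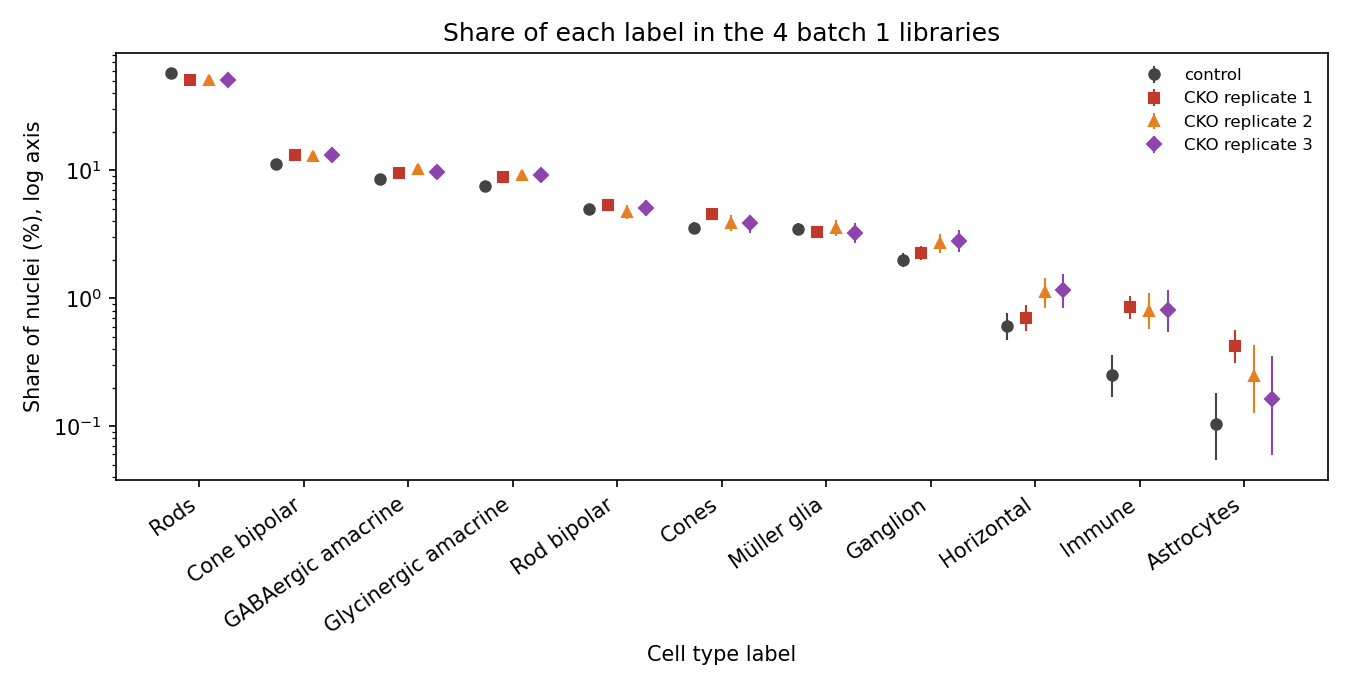
Percent of nuclei (vertical axis, log scale) with each of the 11 cell type labels (horizontal axis). Points are the control and CKO replicates 1, 2 and 3, and bars give the 95% exact binomial interval, which covers counting error only. Rods lie at 57.5% in the control and at 50.6% to 50.9% in the CKO libraries, and immune cells at 0.252% and at 0.801% to 0.857%.

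UMIs were summed per label and library and tested in the 10 labels with at least 10 nuclei in every library, which leaves out astrocytes. Few single genes passed the test in any label, and hardly any passed in more than 1. Of 15084 genes tested, 29 passed edgeR's quasi-likelihood test at a Benjamini-Hochberg adjusted p under 0.05 in at least 1 label, and 2 of these passed in 2 or more labels. Of the 3356 genes tested in all 10 labels, edgeR called 1 in 2 or more labels and 0 in 5 or more, and DESeq2 called 11 and 1. At an unadjusted p under 0.05, 43 of the 3356 genes were higher and 9 lower in CKO in 5 or more labels. The labels share their libraries and the 1 control, so that counts over labels are a description and not independent repeats. Without CKO replicates 1, 2 and 3, edgeR called 0, 2 and 4 genes in 5 or more labels and 11, 19 and 13 genes in 2 or more. These refer to the genes tested in all labels of each such fit. A sum in which every label weighs the same, added after the data had been seen and made of 433447 UMIs per label and library over 9 labels, gave 1 call among 13514 genes (0.0074%), against 14 by DESeq2 and 58, 97 and 0 without CKO replicates 1, 2 and 3.

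The gene that passed in the largest number of labels was the noncoding RNA gene *Gm17167*, which fell in 4 of them. Over all nuclei it was at 94.3 CPM in the control and at 23.2, 28.2 and 15.4 CPM in the CKO replicates. In Müller glia it was at 262 CPM against 41.1, 51.5 and 37.9 (log2 fold change −2.67 ± 0.23, SE, edgeR Benjamini-Hochberg p = 0.00276, lower in 3 of 3 CKO libraries). In cones it was at 204 CPM against 12.03, 31.8 and 11.5 (−3.59 ± 0.39, edgeR Benjamini-Hochberg p = 0.00508, lower in 3 of 3). All 3 CKO libraries therefore lay far below the control in both labels. In GABAergic amacrine cells it was at 68.7 CPM against 18.7, 21.2 and 13.01 (−1.96 ± 0.22, edgeR Benjamini-Hochberg p = 0.0173, lower in 3 of 3). Those 3 calls held under every alternative that holds a value for the gene. With UMIs thinned to equal depth there is such a value in Müller glia only (−3.29), and cones had 0 calls in that fit. The fourth call, in RGCs (47.4 CPM against 16.7, 15.5 and 13.2, −1.67 ± 0.26, edgeR Benjamini-Hochberg p = 0.0477, lower in 3 of 3), was lost under 6 of 7 alternatives (adjusted p from 0.00136 to 1), among them leaving out CKO replicate 1 (log2 fold change −1.78) or CKO replicate 3 (−1.59). It also was the single call in the equal-weight sum (−2.32 ± 0.25, edgeR Benjamini-Hochberg p = 0.0465, lower in 3 of 3), which was lost without CKO replicate 3 (−2.11, adjusted p = 0.698, range over the alternatives 1.06e-34 to 0.698). CKO libraries of the other batches, whose gene annotation is not the same, were low as well, at 28.5 to 49.8 CPM in Müller glia and 9.24 to 27.4 CPM in cones (7 libraries each). *Gm17167* is annotated as a long noncoding RNA at chr4:42206998-42235313 of GRCm39, 5.12 Mb from *Tgfbr1* (chr4:47353134-47414931). Within 5 Mb of *Tgfbr1*, 1 of 63 tested genes was higher and 2 were lower in the equal-weight sum at an unadjusted p under 0.05, and within 20 Mb 3 and 7 of 174 were, next to 365 and 297 of all 13514. Whether strain sequence linked to the *Tgfbr1* alleles accounts for the level of *Gm17167* was not tested.

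Hemoglobin transcripts were the other shared change. *Hbb-bs*, a beta-globin gene of red blood cells, rose in 3 labels and was at 1.52 CPM over all control nuclei and at 61.6, 62.9 and 33.0 CPM in the CKO replicates. Glycinergic amacrine cells had 1.41 CPM against 36.6, 41.4 and 22.0 CPM (log2 fold change 4.50 ± 0.53, edgeR Benjamini-Hochberg p = 0.00321, higher in 3 of 3). Müller glia had 0 UMIs in the control and 104, 27 and 39 in the CKO replicates, which is at least 36.1-fold higher against the floor of 3 counts in the control library (edgeR Benjamini-Hochberg p = 0.00349, higher in 3 of 3). In RGCs there were 2 UMIs against 313, 122 and 47 (ratio 111, 95% counting interval 30.5 to 918, edgeR Benjamini-Hochberg p = 0.0192, higher in 3 of 3), and *Hba-a1*, an alpha-globin gene, had 3 UMIs against 97, 45 and 21 (ratio 24.98, interval 8.40 to 122, edgeR Benjamini-Hochberg p = 0.0296, higher in 3 of 3). Both RGC calls were lost without CKO replicate 1 (fitted log2 fold changes 6.13 and 4.24). Red cell transcripts as a group were higher in most labels. The summed level of the red cell list in the control and in CKO replicates 1, 2 and 3 was 34.8 against 199, 170 and 94.9 CPM in rods, 35.1 against 160, 140 and 181 CPM in Müller glia and 17.5 against 264, 276 and 312 CPM in immune cells. In cones it was 35.02 against 111, 86.2 and 36.9 CPM, so that CKO replicate 3 was near the control there. Of the 9 genes of the list *Hbb-bs*, *Hba-a1* and *Hba-a2* were high in the CKO libraries, whereas *Bpgm*, which is also used outside red cells, was at 22.4 CPM against 21.3, 24.3 and 21.5 over all nuclei. How far RNA from blood outside the nuclei contributes to these values was not tested.

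Most of the other genes that differed in many labels at an unadjusted p under 0.05 did not pass the adjusted test in any. *Gm26954*, a predicted gene, and *Agtpbp1*, which encodes a deglutamylase of tubulin, were higher in CKO at an unadjusted p under 0.05 in all 10 labels. Over all nuclei *Gm26954* was at 415 CPM against 631, 552 and 558, with log2 fold changes from 0.44 to 1.22 over the labels. *Agtpbp1* was at 310 CPM against 554, 666 and 458, with log2 fold changes from 0.51 to 1.32. *Stat3*, the transcription factor downstream of cytokines of the IL6 family, was higher in 9 labels and was at 62.3 CPM against 147, 172 and 100.4 over all nuclei. The glycolytic enzyme genes *Pgk1* (9 labels, 34.5 CPM against 63.2, 66.5 and 62.9), *Ldha* (8 labels, 111 CPM against 149, 149 and 152) and *Pfkp* (8 labels, 339 CPM against 635, 790 and 631) were among the leading genes. In the other direction *Btaf1*, a regulator of the TATA-binding protein, was lower in 8 labels (205 CPM against 160, 125 and 153) and *Atxn2l*, an RNA-binding protein gene, in 7 (151 CPM against 101, 83.9 and 87.1). These genes were chosen after their values had been seen, except *Pfkp*. Of the 3356 genes tested in all labels, 172 were higher and 54 lower in all 10, without regard to p. An offset of the control library as a whole would recur in every label.

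The hypoxia and glycolysis list, 40 genes, had a median log2 fold change above 0 in every label for which a median is given. Cones were closest to 0. No member was lower at an unadjusted p under 0.05 in any label. In CBCs 29 of 36 tested members were higher at an unadjusted p under 0.05, next to 2.45% of all 12534 genes (307), with a median log2 fold change of 0.68. In rod bipolar cells 20 of 35 were (median 0.84), next to 2.89% of all 9393 genes, and *Hk2* and *Pfkp* passed the adjusted test there. In rods 18 of 32 were (median 0.74, next to 1.7% of all genes), in horizontal cells 16 of 36 (0.76, next to 3.76%) and in Müller glia 13 of 36 (0.59, next to 4.01%), where *Aldoa* passed. The inner neurons with smaller medians were the glycinergic amacrine cells, with 10 of 36 (0.32, next to 3.02%), the GABAergic amacrine cells, with 6 of 36 (0.26, next to 1.63%), and the RGCs, with 8 of 36 (0.20, next to 2.93%). Immune cells had 3 of 19 (0.80, next to 3.98%), and cones 2 of 25 (0.14, next to 1.79%), with 7 of 25 below 0 without regard to p. In immune cells, with 29 control nuclei, only 19 of the 40 members had enough UMIs to be tested. Such a filter can take genes because they are high in CKO, so that this count and median do not stand for the whole list. Summed over all members, immune cells were at 2385 CPM in the control and at 3694, 4028 and 3997 CPM in the CKO replicates. In the equal-weight sum 22 of 38 were higher (0.50, next to 2.7%). The median over all genes lay between −0.01 and 0.03 in these labels. The summed level of nuclear noncoding RNAs, which is mostly that of the single gene *Malat1*, chosen after its values had been seen, was lower in every tested label of every CKO library (73188 CPM against 63551, 54346 and 48887 CPM in the equal-weight sum). The other members did not all share this direction, and in Müller glia the median of the list was 0.94, with 4 of 8 members higher at an unadjusted p under 0.05, next to 4.01% of all genes. Mitochondrial mRNAs were at 55.9 CPM against 114, 66.8 and 84.8 in rod bipolar cells, the label with the largest median of the hypoxia and glycolysis list. In Müller glia they were at 109 CPM against 247, 103 and 488, so that CKO replicate 2 was below the control. Whether the quality of nuclei or RNA has a part in these values was not tested.

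Summed over the list, CBCs were at 2666 CPM in the control and at 4410, 4850 and 3811 CPM in the CKO replicates, and rod bipolar cells at 2321 against 4394, 4701 and 3962 CPM. Müller glia were at 3425 against 5607, 5877 and 5082 CPM, and rods at 2822 against 3395, 4112 and 3922 CPM. All 3 CKO replicates were above the control in these labels, whereas in cones CKO replicate 1 was below it (2255 against 2061, 3150 and 2831 CPM). *Pdk1*, a kinase that keeps pyruvate out of mitochondria, was at 38.5 CPM against 95.1, 91.2 and 90.0 in CBCs and at 10.2 CPM against 34.9, 52.5 and 67.4 in rods. *Pfkp*, the platelet type of phosphofructokinase, was at 497 CPM against 1251, 1403 and 983 in CBCs. In Müller glia *Aldoa*, the aldolase of glycolysis, was at 14.6 CPM against 81.4, 85.9 and 93.6 (log2 fold change 2.49 ± 0.34, edgeR Benjamini-Hochberg p = 0.0369, higher in 3 of 3), a call lost without CKO replicate 1 (2.56). *Vegfa*, the angiogenic factor, was at 599 CPM against 1414, 1116 and 827 in Müller glia and did not pass the adjusted test (log2 fold change 0.85 ± 0.26). Over the alternatives the median of the list ran from 0.33 to 0.77 in CBCs, 0.59 to 0.94 in rod bipolar cells, 0.51 to 0.82 in rods, 0.72 to 0.86 in horizontal cells, 0.27 to 0.64 in Müller glia, 0.13 to 0.36 in glycinergic and 0.15 to 0.52 in GABAergic amacrine cells, 0.19 to 0.53 in RGCs and 0.03 to 0.37 in cones.

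**Figure D2:**
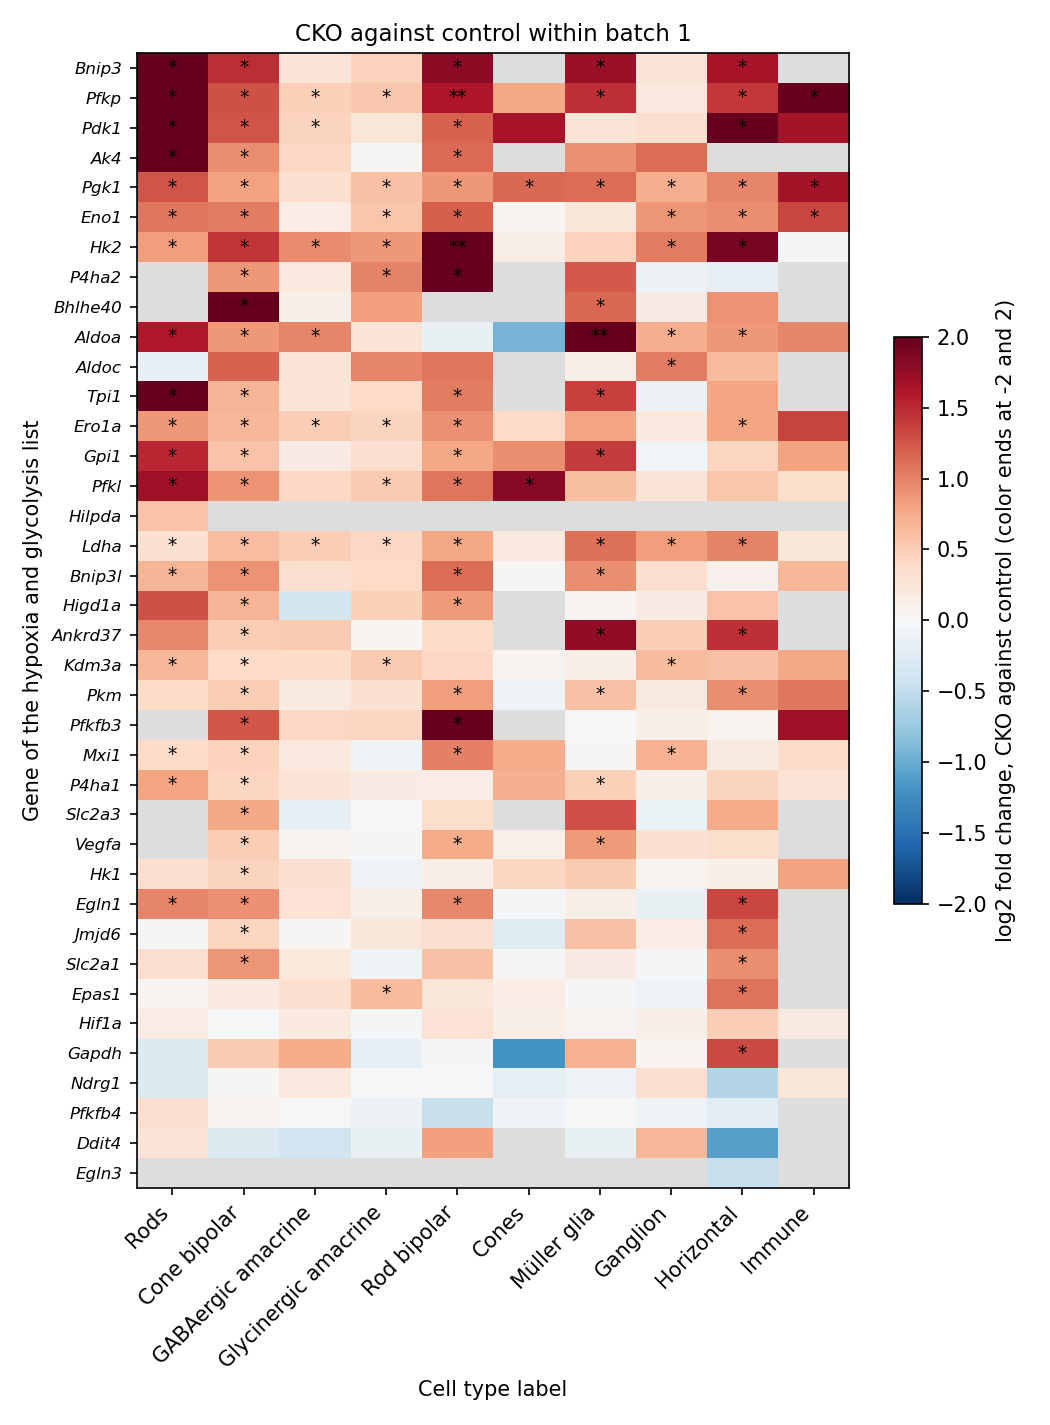
Log2 fold change (CKO against control, color) of each gene of the hypoxia and glycolysis list (vertical axis) in each of the 10 cell type labels (horizontal axis), with the color scale ending at −2 and 2, gray for genes not tested, 1 star for an unadjusted p under 0.05 and 2 stars for an adjusted p under 0.05. Most squares of CBCs are red and starred (29 of 36), and few of the squares of cones are starred (2 of 25).

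As many members of this list were higher in CBCs, rod bipolar cells and rods, their promoters were examined for the core letters of the site that hypoxia-inducible factors bind. Promoters were 300 bases long, from RefSeq on GRCm38.p6, and were searched for ACGTG and GCGTG on both strands. A stretch CACGTG matches on both strands and is counted as 2 matches. Of the 40 members, 35 have an entry, and 33 of these (94.3%) hold at least 1 match in any of their promoters, next to 12628 of 27025 genes (46.7%). For ACGTG alone it was 26 of 35 (74.3%) against 5886 of 27025 (21.8%). By promoter, 81.5% of the 54 promoters of the list and 43.8% of all 32851 hold a match. A match is a description of these letters and not a bound site. The members were picked as genes of hypoxia and glycolysis, so that an excess over all genes can follow from that choice. It draws nothing from the levels in these libraries. The promoters of the 3 list members higher at an unadjusted p under 0.05 in at least 8 labels are printed with the matches in capitals, either strand: *Pgk1* at chrX:106186850-106187149 (plus strand, 2 matches), *Pfkp* at chr13:6648722-6649021 (minus strand, 4 matches) and *Ldha* at chr7:46845554-46845853 (plus strand, 7 matches) and at chr7:46846832-46847131 (plus strand, 2 matches).
*Pgk1*: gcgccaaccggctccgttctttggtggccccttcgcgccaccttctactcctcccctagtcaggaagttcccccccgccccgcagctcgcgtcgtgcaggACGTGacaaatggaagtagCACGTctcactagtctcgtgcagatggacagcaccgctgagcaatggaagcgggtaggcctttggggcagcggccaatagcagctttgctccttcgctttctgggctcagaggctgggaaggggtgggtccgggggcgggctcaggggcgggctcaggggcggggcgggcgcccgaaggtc
*Pfkp*: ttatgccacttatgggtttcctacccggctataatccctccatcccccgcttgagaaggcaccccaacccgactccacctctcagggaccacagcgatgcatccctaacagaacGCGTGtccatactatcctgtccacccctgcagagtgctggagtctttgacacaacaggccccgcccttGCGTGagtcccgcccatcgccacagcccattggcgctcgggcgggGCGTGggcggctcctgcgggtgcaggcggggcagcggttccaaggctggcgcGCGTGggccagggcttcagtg
*Ldha*: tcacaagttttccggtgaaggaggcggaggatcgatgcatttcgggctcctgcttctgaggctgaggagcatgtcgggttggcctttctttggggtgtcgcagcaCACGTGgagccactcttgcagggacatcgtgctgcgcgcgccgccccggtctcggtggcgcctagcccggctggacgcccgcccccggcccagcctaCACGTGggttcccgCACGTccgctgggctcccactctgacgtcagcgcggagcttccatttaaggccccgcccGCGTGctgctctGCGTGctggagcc
*Ldha*: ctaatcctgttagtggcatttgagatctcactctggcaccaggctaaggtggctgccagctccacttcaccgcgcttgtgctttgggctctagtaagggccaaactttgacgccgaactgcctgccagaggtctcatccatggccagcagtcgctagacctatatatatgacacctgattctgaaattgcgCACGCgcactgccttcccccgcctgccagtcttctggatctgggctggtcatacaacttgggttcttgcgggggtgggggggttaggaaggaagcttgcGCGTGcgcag

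The gliosis list, 30 genes, had higher summed levels in Müller glia and in neurons of the CKO libraries. In Müller glia the summed level was 1545 CPM in the control and 3308, 2505 and 2106 CPM in the CKO replicates. Of the 30 members 17 had enough UMIs to be tested there. Such a filter can take genes because they are high in CKO, so that no count or median is given. *A2m*, the protease inhibitor alpha-2-macroglobulin, was at 4.63 CPM against 51.0, 53.7 and 47.8 in Müller glia (3.35 ± 0.47, edgeR Benjamini-Hochberg p = 0.0369, higher in 3 of 3), and this call was lost without CKO replicate 1 (3.36). *Gfap*, the intermediate filament gene of reactive glia, was at 11.9 CPM against 43.3, 88.0 and 23.9 in Müller glia and did not pass (2.00 ± 0.63). Mitochondrial mRNAs were at 109 CPM against 247, 103 and 488 in the same nuclei. Whether the quality of nuclei or RNA has a part in the gliosis values was not tested. In neurons only 5 to 9 of the 30 members had enough UMIs to be tested, some of them with 0 UMIs in the control, and that filter takes genes that are high in CKO, so that only sums over all members are given. They were 296 CPM against 644, 701 and 465 in rods, 199.5 against 306, 365 and 229 in CBCs, 202 against 467, 422 and 248 in rod bipolar cells and 239.6 against 433, 449 and 348 in cones. Horizontal cells were at 505 CPM against 875, 758 and 656, RGCs at 189.6 against 323, 368 and 260.3, glycinergic amacrine cells at 151 against 259.8, 306 and 213 and GABAergic amacrine cells at 315 against 379, 399 and 370. Every CKO library was above the control in these sums, of which *Stat3* was the largest member in all but GABAergic amacrine and horizontal cells. *Edn2*, an endothelin gene, had 0 UMIs in the control and 243, 90 and 36 in the rods of the CKO replicates, at least 76.0-fold higher against a floor of 3 counts in that label. Over all nuclei it had 0 UMIs against 419, 198 and 75, or at least 123-fold. *Fgf2*, a growth factor gene, was at 20.3 CPM against 119, 130 and 85.9 in rods (2.46 ± 0.30) and *Stat3* at 58.0 CPM against 235, 285 and 145 (1.94 ± 0.38). Every CKO library was above the control in these rod values, and none of them passed the adjusted test, nor did any gene in rods. *Fgf2* was chosen after its values had been seen.

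In Müller glia 8 genes rose and 1 fell among 9252 (0.0973%), whereas DESeq2 called 25, and edgeR called 3, 108 and 199 without CKO replicates 1, 2 and 3. To ask whether a gene changed differently in a label, its log2 fold change there was tested against that in all other nuclei of the same libraries. In Müller glia 16 of 9220 genes (0.174%) passed this test of the difference, 9 with rods left out of the other nuclei and 66, 45 and 222 without CKO replicates 1, 2 and 3. *Dpp6*, an auxiliary subunit of A-type potassium channels, was at 21.2 CPM against 180, 163 and 149 (2.90 ± 0.28, edgeR Benjamini-Hochberg p = 0.00362, higher in 3 of 3). In all other nuclei it was at 467 CPM against 528, 534 and 536, and the difference was 2.75 ± 0.25 on the log2 scale (edgeR Benjamini-Hochberg p = 0.000257). *Nebl*, the actin-binding nebulette, was at 3.31 CPM against 77.6, 105 and 57.8 (4.47 ± 0.55, edgeR Benjamini-Hochberg p = 0.0208, higher in 3 of 3), and in all other nuclei at 416 against 432, 487 and 488 CPM (difference 4.40 ± 0.48, edgeR Benjamini-Hochberg p = 0.000986). Both genes thus were low in control Müller glia while other nuclei of the same library held much of their transcripts. *Rian*, a noncoding RNA of the imprinted *Dlk1-Dio3* region, was at 45.7 CPM against 256, 217 and 157 (2.16 ± 0.31, edgeR Benjamini-Hochberg p = 0.0369, higher in 3 of 3), and *Robo1*, a guidance receptor, at 31.1 against 117, 135 and 118 (1.91 ± 0.28, edgeR Benjamini-Hochberg p = 0.0395, higher in 3 of 3). For both, the difference passed too (2.11 ± 0.30 and 2.18 ± 0.25), and other nuclei held 337 and 674 CPM in the control. *Fn1*, fibronectin, was at 38.4 CPM against 197, 339 and 193 (2.57 ± 0.36, edgeR Benjamini-Hochberg p = 0.0369, higher in 3 of 3), with no call of a difference. Without CKO replicate 1 the calls of *Nebl* (log2 fold change 4.50), *Rian* (1.98), *Robo1* (1.96) and *Fn1* (2.74) were lost, and that of *Dpp6* was kept. With UMIs thinned to equal depth the calls of *Dpp6* (2.84), *Fn1* (2.71) and *Rian* (1.14) were lost. How much RNA from other nuclei adds to these levels in each library was not tested, and the same holds for the labels described below.

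Rod bipolar cells showed 5 genes that rose and 3 that fell among 9393 (0.0852%), against 16 by DESeq2 and 49, 72 and 82 without CKO replicates 1, 2 and 3. *Gm15283*, a predicted gene, was at 57.8 CPM against 383, 339 and 279 (2.51 ± 0.23, edgeR Benjamini-Hochberg p = 0.00198, higher in 3 of 3), and in all other nuclei at 39.8 against 92.6, 92.6 and 70.4 CPM. *Hk2*, hexokinase 2, was at 31.1 CPM against 146, 154 and 125 (2.16 ± 0.24, edgeR Benjamini-Hochberg p = 0.0083, higher in 3 of 3), and at 73.2 against 131, 149 and 105 CPM elsewhere. These genes were higher in both compartments and more so in rod bipolar cells (differences 1.44 ± 0.19 and 1.38 ± 0.21), although that of *Hk2* was lost without CKO replicate 1 (1.37). With UMIs thinned to equal depth, the log2 fold change of *Hk2* was 0.89 and its call was lost. *Pfkp* rose from 400.0 to 1203, 1479 and 1100 CPM (1.62 ± 0.20, edgeR Benjamini-Hochberg p = 0.0123, higher in 3 of 3). *Tafa2*, which encodes a secreted chemokine-like protein, fell from 46.8 CPM to 1.91, 2.84 and 4.99 CPM (−4.01 ± 0.50, edgeR Benjamini-Hochberg p = 0.0123, lower in 3 of 3), while all other nuclei held 282 against 241, 231 and 274 CPM. Its difference was −3.87 ± 0.36 (edgeR Benjamini-Hochberg p = 0.00234). In rods *Tafa2* had 174 UMIs in the control and 1, 0 and 0 in the CKO replicates, next to 361 CPM in the other control nuclei, and the difference passed there too (edgeR Benjamini-Hochberg p = 0.00417, lower in 3 of 3). With CKO rods at about 0, its fitted size is no bound (−7.53, and −10.16 without CKO replicate 1). *Tafa2* was thus close to 0 in rods and rod bipolar cells of all 3 CKO libraries and was not in those of the control. The synaptic receptor subunit gene *Grin2b* (550 CPM against 258, 273 and 307, −1.01 ± 0.15) and the microtubule-associated gene *Nav3* (176 against 75.5, 66.8 and 71.1, −1.32 ± 0.19) fell as well, calls that were lost with UMIs thinned to equal depth (−0.98 and −1.56), and passed the test of the difference, that of *Grin2b* not without CKO replicate 1 (−0.93).

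Other calls in rod bipolar cells went to genes at or near 0 in the control. *Mgat4c*, a glycosyltransferase gene, had 0 UMIs against 41, 19 and 25, at least 18.1-fold higher (edgeR Benjamini-Hochberg p = 0.0266, higher in 3 of 3), and *Brinp3* had 3 UMIs against 64, 19 and 23 (ratio 20.6, interval 6.85 to 101, edgeR Benjamini-Hochberg p = 0.0305, higher in 3 of 3). In all other nuclei *Mgat4c* was at 1013 CPM in the control and 1069, 948 and 1009 in the CKO replicates, and *Brinp3* at 121 against 147, 98.2 and 149 CPM. Their levels elsewhere thus overlapped between genotypes. DESeq2 did not call *Mgat4c*. How much RNA from other nuclei adds to the UMIs of these 2 genes in rod bipolar cells was not tested. In total 18 of 9392 genes (0.192%) passed the test of the difference in rod bipolar cells, and 11, 21 and 37 without CKO replicates 1, 2 and 3.

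Glycinergic amacrine cells held the smallest p of all labels. *Adamts19*, a secreted metalloprotease gene, was at 5.94 CPM against 88.4, 90.7 and 94.4 (3.90 ± 0.26, edgeR Benjamini-Hochberg p = 5.29e-06, higher in 3 of 3) and in all other nuclei at 13.8 against 30.0, 31.8 and 18.4 CPM. The difference was 2.98 ± 0.40 (edgeR Benjamini-Hochberg p = 0.00884). *Ak5*, an adenylate kinase of brain, was at 12.2 CPM against 74.8, 90.0 and 159 (3.09 ± 0.40, edgeR Benjamini-Hochberg p = 0.00686, higher in 3 of 3) and elsewhere at 20.0 against 22.1, 22.4 and 29.7 CPM (difference 2.77 ± 0.30, edgeR Benjamini-Hochberg p = 0.00221). Both calls and both differences held under every alternative that holds a value for them. The fit with UMIs thinned to equal depth holds none for these 2 genes. In 7 CKO libraries of the other batches, whose gene annotation is not the same, *Adamts19* was at 85.0 to 165 CPM and *Ak5* at 104 to 165 CPM in this label. *Tpm1*, a tropomyosin gene, was at 64.5 CPM against 174, 147 and 222 (1.46 ± 0.21, edgeR Benjamini-Hochberg p = 0.0151, higher in 3 of 3), and *Antxr2*, an anthrax toxin receptor gene, at 19.5 against 52.3, 54.5 and 55.0 (1.43 ± 0.23, edgeR Benjamini-Hochberg p = 0.0369, higher in 3 of 3). *Nell1*, a secreted glycoprotein gene, fell from 231 CPM to 126, 97.2 and 132 (−0.98 ± 0.16, edgeR Benjamini-Hochberg p = 0.0369, lower in 3 of 3), and *Spink13*, a serine protease inhibitor gene, from 409 CPM to 176, 144 and 245 (−1.15 ± 0.19, edgeR Benjamini-Hochberg p = 0.0416, lower in 3 of 3). The call of *Spink13* was lost with DESeq2 (−1.15), and those of *Nell1* (−0.88) and *Tpm1* (2.06) with UMIs thinned to equal depth. In these cells *Spink13* was far above the 6.37 CPM of all other control nuclei, and *Nell1* was at 87.6 CPM there. *Tpm1*, *Nell1* and *Spink13* passed the test of the difference (1.41 ± 0.18, −1.02 ± 0.14 and −1.24 ± 0.19), as did *Csgalnact1*, a chondroitin sulfate enzyme gene chosen after its values had been seen (7.35 CPM against 31.3, 28.9 and 41.7, difference 2.07 ± 0.28). In all, 6 genes rose and 2 fell among 12147 (0.0659%), against 14 by DESeq2 and 91, 65 and 26 without CKO replicates 1, 2 and 3, and 11 of 12134 (0.0907%) passed the test of the difference, against 31, 35 and 30 without them.

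**Figure D3:**
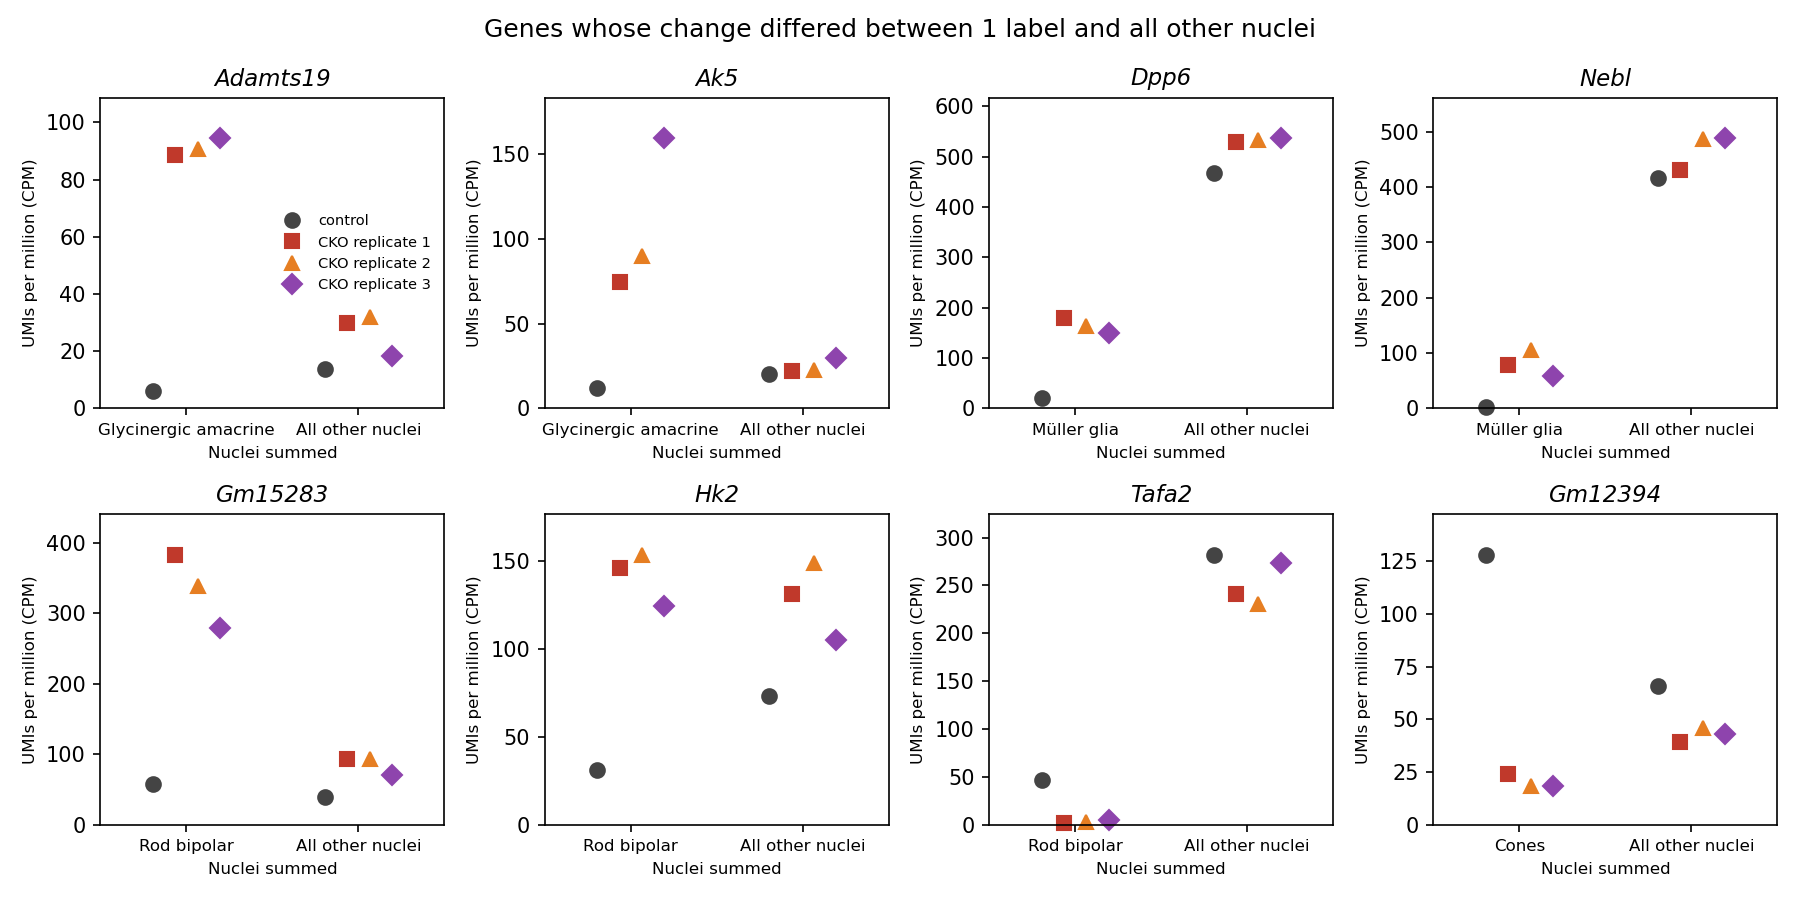
CPM (vertical axes, linear, from 0) of 8 genes in the control and in CKO replicates 1, 2 and 3, each in the label named on the horizontal axis and in all other nuclei of the same library, 1 point per library. *Adamts19* in glycinergic amacrine cells lies at 5.94 in the control and at 88.4 to 94.4 in the CKO libraries, and *Tafa2* in rod bipolar cells at 46.8 and at 1.91 to 4.99.

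GABAergic amacrine cells showed 2 calls among 13089 genes (0.0153%), as by DESeq2, and 35, 6 and 4 without CKO replicates 1, 2 and 3. Beside *Gm17167* this was *Lama3*, a laminin chain gene, at 6.31 CPM against 42.8, 40.6 and 31.1 (2.59 ± 0.30, edgeR Benjamini-Hochberg p = 0.0173, higher in 3 of 3). All 3 CKO libraries were far above the control. In horizontal cells, which had the higher level of *Lama3*, it was at 220 CPM against 120, 123 and 100.1, so the direction was the opposite (−1.11 ± 0.24). There *Lama3* was the single gene of 8127 (0.0123%) that passed the test of the difference (−3.13 ± 0.31, edgeR Benjamini-Hochberg p = 0.000451, lower in 3 of 3), since all other nuclei were at 3.57 CPM in the control and 13.3, 16.7 and 14.7 CPM in the CKO replicates. Without CKO replicates 1, 2 and 3 the count in horizontal cells was 122, 1 and 9. In GABAergic amacrine cells edgeR called 0 of 13037 differences (0%), with 620 at an unadjusted p under 0.05 and with 160, 2 and 0 calls without CKO replicates 1, 2 and 3. DESeq2 was not run for differences.

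Cones showed 3 calls among 7843 genes (0.0383%), against 5 by DESeq2 and 96, 20 and 16 without CKO replicates 1, 2 and 3. The predicted gene *Gm12394* fell beside *Gm17167*, from 128 CPM to 24.1, 18.1 and 18.5 CPM (−2.59 ± 0.32, edgeR Benjamini-Hochberg p = 0.00826, lower in 3 of 3). It was lower in all other nuclei as well, at 65.9 against 39.4, 46.1 and 43.0 CPM, and the difference passed (−1.91 ± 0.32, edgeR Benjamini-Hochberg p = 0.0449) but not with rods left out of the other nuclei (−1.87, adjusted p = 0.0704, range over the alternatives 1.37e-05 to 0.12). *Cdh20*, a cadherin gene, had 0 UMIs in control cones and 68, 23 and 30 in the CKO replicates, at least 21.2-fold higher (edgeR Benjamini-Hochberg p = 0.00508, higher in 3 of 3), while all other nuclei held 193 against 192, 194.5 and 195.5 CPM. The gene was thus as abundant outside cones in the control as in CKO, and DESeq2 did not call it in cones. Of 7839 genes, 4 (0.051%) differed from all other nuclei, against 63, 20 and 29 without CKO replicates 1, 2 and 3.

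Rods and CBCs gave no call by edgeR, although their sums of UMIs were large. In rods 0 of 11227 genes passed (0%), with 303 at an unadjusted p under 0.05, against 52 by DESeq2 and 9, 20 and 26 by edgeR without CKO replicates 1, 2 and 3. *Antxr2* had the smallest p, at 4.18 CPM against 154, 196 and 112 (5.20 ± 0.44, edgeR Benjamini-Hochberg p = 0.0509, higher in 3 of 3). In all other nuclei it was at 83.5 against 110, 120 and 106 CPM, and the difference passed (4.77 ± 0.32, edgeR Benjamini-Hochberg p = 0.00618), as it did for *Tafa2* and no other gene of 11209 (0.0178%, and 39, 5 and 10 without CKO replicates 1, 2 and 3). In rod bipolar cells, which held the most *Antxr2* of these labels, it was at 491 CPM against 481, 449 and 549 and overlapped between genotypes. In CBCs 0 of 12534 genes passed (0%), with 450 at an unadjusted p under 0.05, against 24 by DESeq2 and 2, 26 and 25 by edgeR without CKO replicates 1, 2 and 3. Here the collagen gene *Col23a1*, chosen after its values had been seen, was the single gene of 12514 (0.00799%, and 70, 1 and 30 without CKO replicates 1, 2 and 3) with a difference (1.45 ± 0.13, edgeR Benjamini-Hochberg p = 0.000147), at 112 CPM against 223, 311 and 254. In Müller glia, its highest label of these, it was at 1108 CPM against 570, 648 and 675, with a difference in the opposite direction (−1.40 ± 0.17, edgeR Benjamini-Hochberg p = 0.00228).

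RGCs had 4 calls among 11577 genes (0.0346%), which were *Hbb-bs*, *Hba-a1*, *Gm17167* and *1700047F07Rik*, against 0, 19 and 4 without CKO replicates 1, 2 and 3. DESeq2 called 4 genes higher and 0 lower, and thus neither *Gm17167* (−1.68) nor *1700047F07Rik*. The call of *1700047F07Rik* rested on 55 UMIs from 5 control nuclei and 8, 3 and 4 UMIs in the CKO replicates (−3.02 ± 0.44, edgeR Benjamini-Hochberg p = 0.0296, lower in 3 of 3). It was lost without CKO replicate 1 (−3.08) or 3 (−3.07) and with DESeq2 (−3.05). Differences were called for 9 of 11559 genes (0.0779%) and for 156, 0 and 38 without CKO replicates 1, 2 and 3. Among these was *Pfkp*, at 677 CPM against 712, 890 and 817 in RGCs and at 310 against 628, 778 and 610 CPM in all other nuclei (difference −0.89 ± 0.14, edgeR Benjamini-Hochberg p = 0.00342), a call lost without CKO replicate 2 (−0.85). RGCs thus held more *Pfkp* than other nuclei in the control, and the levels were closer to each other in CKO.

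Horizontal cells gave no call by edgeR (0 of 8139, 0%), with 565 genes at an unadjusted p under 0.05, against 1 by DESeq2 and 28, 3 and 3 without CKO replicates 1, 2 and 3. Their own marker genes had lower levels in the CKO libraries, as did the sum of nuclear noncoding RNAs, mostly *Malat1* (141417 CPM against 113981, 84674 and 66206). Of the 9 members of that list 7 had a higher fitted value, 1 of them at an unadjusted p under 0.05, next to 3.76% of all genes. Mitochondrial mRNAs were higher (57.4 CPM against 116, 99.6 and 215). Of 9 tested members of the horizontal cell list, 4 were lower at an unadjusted p under 0.05 and 0 higher, next to 3.18% of all genes (259) that were lower, with a median log2 fold change of −0.71. The summed level was 5111 CPM in the control and 4324, 3573 and 2470 CPM in the CKO replicates. Per CKO library the median was −0.24, −0.56 and −1.10, so that it was furthest from 0 in CKO replicate 3. *Lhx1*, a transcription factor that positions these cells, was at 127 CPM against 76.8, 65.4 and 52.9 (−1.11 ± 0.29), *Prox1* at 881 against 746, 539 and 443 (−0.76 ± 0.31) and *Onecut1* at 387 against 315, 244 and 160 (−0.84 ± 0.33). Every CKO library was below the control for these 3 genes, and none passed the adjusted test. Photoreceptor transcripts had the opposite direction in the same nuclei, where the summed rod phototransduction list was at 8267 CPM against 10049, 11460 and 13972 and the cone list at 1386 against 1433, 1898 and 2147. Whether rod and cone RNA mixed with these nuclei, or their quality, has a part in the lower marker levels was not tested. In RGCs mitochondrial mRNAs were not higher (107.6 CPM against 87.5, 90.7 and 101.5), but marker and photoreceptor genes showed the same directions, with 3 of 13 members of the ganglion cell list lower at an unadjusted p under 0.05 and 0 higher, next to 1.92% of all genes, a median of −0.30 and sums of 1593 CPM against 1466, 1207 and 1239. There the rod phototransduction list was at 5985 CPM against 7172, 8581 and 6994, and 7 of 14 members of the cone phototransduction list were higher at an unadjusted p under 0.05, next to 2.93% of all genes. *Prox1* and *Onecut1* were chosen after their values had been seen.

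Genes of cholesterol synthesis had lower levels in CKO amacrine cells, and their medians were below 0 in horizontal cells and RGCs too. In GABAergic amacrine cells all 21 members of the list had a lower fitted value in CKO, 7 of them at an unadjusted p under 0.05, next to 0.978% of all genes (128), with a median log2 fold change of −0.62. The summed level was 550.2 CPM in the control and 358, 263 and 454 CPM in the CKO replicates. In glycinergic amacrine cells 17 of 20 had a lower fitted value and 3 a higher one. There 8 were lower at an unadjusted p under 0.05, next to 2.05% of all genes (249), with a median of −0.60 and sums of 482 CPM against 325, 229 and 410. In horizontal cells all 10 tested members had a lower fitted value, 1 of them at an unadjusted p under 0.05, next to 3.18% of all genes, with a median of −0.62 and sums of 383 CPM against 280.4, 246 and 353. No member passed the adjusted test in these labels, and every CKO library was below the control. *Cyp51*, lanosterol demethylase, was at 29.4 CPM against 16.0, 12.6 and 17.6 in GABAergic amacrine cells. In glycinergic amacrine cells *Sqle*, squalene epoxidase, was at 22.6 CPM against 10.3, 6.57 and 11.0. The median was −0.42 in RGCs (17 of 18 members with a lower fitted value, 2 at an unadjusted p under 0.05, next to 1.92% of all genes), where CKO replicate 3 was above the control in the sum (485 CPM against 352, 278 and 511). It was 0.26 in rods, 0.20 in Müller glia, 0.18 in rod bipolar cells, 0.12 in CBCs and −0.02 in cones. Whether the labels differ in this list was not tested. The summed cone phototransduction list was higher in the CKO amacrine nuclei. It was at 988 CPM against 1047, 1382 and 1132 in GABAergic and at 1205 against 1407, 1795 and 1560 in glycinergic cells. The rod list overlapped the control in glycinergic cells (8572 CPM against 9138, 9625 and 8021). Whether photoreceptor RNA has a part in the cholesterol values was not tested. Over the alternatives the median ran from −0.86 to −0.44 in GABAergic amacrine, from −0.76 to −0.42 in glycinergic amacrine and from −0.73 to −0.47 in horizontal cells. *Cyp51* and *Sqle* were chosen after their values had been seen.

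In nuclei labeled immune edgeR called 0 of 3996 genes (0%), with 279 at an unadjusted p under 0.05, as against 0 by DESeq2 and 7, 13 and 0 by edgeR without CKO replicates 1, 2 and 3. This label pools microglia with other immune cells, so that a level per label is not a level within microglia. Microglial genes made up less of it in CKO, with 3 of 11 tested members lower at an unadjusted p under 0.05, next to 3% of all genes (120), a median of −0.80 and sums of 3119 CPM in the control and 1872, 1700 and 2387 in the CKO replicates. *Siglech*, a microglial lectin gene, was at 280 CPM against 30.4, 10.6 and 72.1, and *P2ry12*, a purinergic receptor gene of resting microglia, at 393 against 175, 117 and 64.1. The list of other immune cells had sums of 52.4 CPM against 761, 946 and 272. Of its 30 members 3 had enough UMIs to be tested, and with few control nuclei that filter takes genes that are high in CKO, so that no count of members is given. *Ccr2*, a chemokine receptor gene of monocytes, had 0 UMIs in the control and 31, 10 and 11 in the CKO replicates, at least 3.47-fold higher against a floor of 3 counts. The control label also held more transcripts of rod bipolar cells, with sums of 4988 CPM against 2398, 1520 and 1386 and 4 of 7 members lower at an unadjusted p under 0.05. In the test of the difference *Neto1*, a kainate receptor auxiliary gene, was the single gene of 3957 (0.0253%, and 17, 37 and 0 without CKO replicates 1, 2 and 3), from 31 UMIs in 4 control nuclei. With 29 control nuclei, the part of neuronal RNA in these values was not tested.

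The TGF-beta pathway list of 33 genes, of which 8 to 20 were tested per label, had medians between −0.19 and 0.25 in the 10 labels. Calls across genes rested on 1 control library, which was assumed to vary like the CKO libraries, and on 2 residual degrees of freedom. All retina libraries were also fitted with batch as a covariate. The calls of *Adamts19*, *Ak5*, *Gm12394* and of *Gm17167* in cones, GABAergic amacrine cells and Müller glia were kept there. All other per-label calls were lost. The other batches hold no control, so that the log2 fold changes of that fit come from batch 1. They were therefore similar by design (2.90 for *Dpp6*, 2.50 for *Gm15283* and −3.98 for *Tafa2* in rod bipolar cells), and only the estimated spread could change.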

How the data were processed

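The matrix deposited by the authors holds UMI counts, made by aligning reads with PIPseeker 3.3.0, removing ambient RNA with CellBender 0.3.2, and removing doublets with SOLO and by hand. The methods of the study name GRCm39 for the alignment, whereas the deposited notes name mm10. From these counts, UMIs of nuclei with batch label 1 were summed here per cell type label and library and tested with edgeR 4.0.16 (TMM, quasi-likelihood F test, Benjamini-Hochberg adjustment within each label) in R 4.3.3, on genes with at least 40 UMIs over the libraries in labels with at least 10 nuclei in every library. The difference test compared a label with all other nuclei of the same libraries, with library as a block. DESeq2 1.42.0, its size factors, no filter, sums thinned to equal depth, all 12 retina libraries with batch as a covariate and leaving out each CKO library were the alternatives, and the equal-weight sum was added after the data had been seen. Where the control had 0 UMIs, a lower bound against 3 counts is given, and from 1 to 3 UMIs a ratio with a 95% counting interval.

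Genes were named by a rule. It takes the genes called in the most labels in each direction, for each label the 3 leading genes by p both up and down among those called there and past the difference test, members of lists that were called in at least 2 labels or lead a list, and *Tgfbr1*, *Tgfbr2*, *Xist* and Y chromosome genes. Other genes in the text, among them *Brinp3*, *Pdk1*, *Vegfa*, *P2ry12*, *Hba-a2* and *Bpgm*, were chosen after their values had been seen. Members and the 34 gene lists were chosen with earlier results of these data known.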

Additional observations from a re-analysis of the deposited data

Results flagged for a closer look

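Each of these genes passed the edgeR test in 1 cell type and also differed there from all other nuclei of the same libraries, which is what drew attention to it. The values are the log2 fold change in the cell type minus that in all other nuclei. In glycinergic amacrine cells they were 2.98 for *Adamts19*, 2.77 for *Ak5*, 1.41 for *Tpm1*, −1.02 for *Nell1* and −1.24 for *Spink13*. In Müller glia they were 2.75 for *Dpp6*, 4.40 for *Nebl* and 2.11 for *Rian*. In rod bipolar cells they were 1.44 for *Gm15283*, 1.38 for *Hk2*, −0.97 for *Grin2b*, −1.18 for *Nav3* and −3.87 for *Tafa2*. In cones the value was −1.91 for *Gm12394*, and in ganglion cells −2.88 for *1700047F07Rik*. For *Cdh20* in cones (12.10) and *Mgat4c* in rod bipolar cells (11.12) the control had 0 UMIs in the cell type, and these fitted values are no bound. The cause of these differences was not tested.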

How the results depend on the processing

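With 1 control library, 2 residual degrees of freedom and few nuclei in the rarer labels, calls of single genes depend on the fit. No paired analysis was possible because the control and CKO libraries share fewer than 2 replicate numbers. The lone control was assumed to vary like the CKO libraries. Over the alternatives that hold a value for them, called genes lost their call 61 times and turned direction 0 times, and otherwise kept it. Every alternative uses the same control library, so that a kept direction is no independent support. Some called genes have no value in the thinned fit, so that their calls were not tested there. Among them are *Adamts19*, *Ak5*, *Cdh20*, *Gm12394* and, in cones and GABAergic amacrine cells, *Gm17167*. Of the list medians 233 stayed within the SD of the medians of the CKO libraries and 45 moved further, and of the shares 49 kept their direction and 5 turned. Sums of immune cells were too small for the thinned fit, and for the equal-weight sum neither that fit nor the fit of all retina libraries was run. Counts for at least 2 or 5 labels refer to the genes tested in all labels of the fit at hand, which are 3356 in the main fit. This base is another one without the filter, with thinned UMIs, with all retina libraries and when a CKO library is left out. The causes of the changes were not tested.

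With DESeq2 in place of edgeR the calls were 24 in CBCs, 5 in cones, 14 in glycinergic amacrine cells, 1 in horizontal cells, 25 in Müller glia, 16 in rod bipolar cells, 52 in rods, 14 in the equal-weight sum, 1 in at least 5 labels and 11 in at least 2 labels. With DESeq2's size factors in edgeR they were 3 in immune cells, 1 in rods, 0 in the equal-weight sum and 2 in at least 2 labels. Without the filter on low counts they were 90 in CBCs, 44 in cones, 41 in GABAergic amacrine cells, 82 in glycinergic amacrine cells, 50 in horizontal cells, 49 in immune cells, 158 in Müller glia, 85 in rod bipolar cells, 0 in RGCs, 115 in rods, 0 in the equal-weight sum, 24 in at least 5 labels and 90 in at least 2 labels. With UMIs thinned to equal depth they were 0 in cones, 1 in GABAergic amacrine cells, 5 in glycinergic amacrine cells, 2 in Müller glia, 4 in rod bipolar cells and 2 in RGCs. With all retina libraries and batch as a covariate they were 1 in GABAergic amacrine cells, 2 in glycinergic amacrine cells, 1 in Müller glia, 0 in rod bipolar cells, 0 in RGCs and 0 in at least 2 labels.

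Leaving out 1 CKO library gave 2 to 26 in CBCs, 16 to 96 in cones, 4 to 35 in GABAergic amacrine cells, 26 to 91 in glycinergic amacrine cells, 3 to 28 in horizontal cells, 0 to 13 in immune cells, 3 to 199 in Müller glia, 49 to 82 in rod bipolar cells, 0 to 19 in RGCs, 9 to 26 in rods, 0 to 97 in the equal-weight sum, 0 to 4 in at least 5 labels and 11 to 19 in at least 2 labels. For calls of a difference from all other nuclei the ranges were 1 to 70 in CBCs, 20 to 63 in cones, 0 to 160 in GABAergic amacrine cells, 30 to 35 in glycinergic amacrine cells, 1 to 122 in horizontal cells, 0 to 37 in immune cells, 45 to 222 in Müller glia, 11 to 37 in rod bipolar cells, 0 to 156 in RGCs and 5 to 39 in rods. These calls were 1 in cones, 18 in glycinergic amacrine cells and 3 in horizontal cells with at least 10 UMIs in both compartments, and 9 in Müller glia with rods left out of the other nuclei.

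With rods left out of the denominator the share in CKO minus that in the control was −0.0861 percentage points for cones, −0.429 for GABAergic amacrine cells and −1.4 for rod bipolar cells. For rod bipolar cells it was −0.283 among nuclei with at least 1000 UMIs and ran from −0.0445 to 0.249 when 1 CKO library was left out.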
